A study of Mus musculus with 12 samples.

Results

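The MEF2 transcription factors were taken as every probe whose target name, in any letter case, was MEF2A, MEF2B, MEF2C or MEF2D. The rule found 8 of 45281 probes, and 3 of the 30854 gene names on the array: 2 probes for Mef2b, 5 for Mef2c and 1 for Mef2d. It found no probe for Mef2a, which was not analysed here. Expression in C2C12 cells was read on 12 Illumina arrays of the type MouseWG-6 v2.0 R3; C2C12 is an established line of mouse myoblasts that fuse into myotubes when serum is lowered. The groups of 2 arrays each were 10 uM embelin and DMSO, its solvent, in growth medium with 20% fetal bovine serum, and the same pair of treatments after 24 h and after 48 h in differentiation medium with 2% horse serum. Embelin is a benzoquinone from plants, given in the title of the series as a PCAF (acetyltransferase) inhibitor. All groups were of this line and differed by label in medium, time and treatment only. For the growth medium arrays the labels give 0 h in one field and 24 h of treatment in another, so the exposure before harvest is uncertain at that stage.

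MEF2 proteins are MADS-box transcription factors that bind A/T-rich sites as dimers, and MEF2C rises as myoblasts differentiate. In muscle they work with MyoD family factors, which bind E-boxes, and switch on genes of the contractile apparatus and of muscle metabolism. Class IIa histone deacetylases bind MEF2 and hold its targets silent, while p38 MAP kinases, calcium/calmodulin-dependent kinases and acetyltransferases such as p300 raise its activity. A change of MEF2 activity through these proteins need not change the level of MEF2 mRNA, which is what the arrays measured.

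Mef2c was the member whose signal moved, and its start sites are shown for that reason. In mouse assembly GRCm38.p6 the gene spans chr13:83504017-83667079, and RefSeq start sites gave 3 windows of 300 bases on the plus strand, each from 250 bases before to 50 bases after the start. Capitals mark E-boxes, CANNTG, searched on both strands.
Mef2c start at chr13:83503784-83504083: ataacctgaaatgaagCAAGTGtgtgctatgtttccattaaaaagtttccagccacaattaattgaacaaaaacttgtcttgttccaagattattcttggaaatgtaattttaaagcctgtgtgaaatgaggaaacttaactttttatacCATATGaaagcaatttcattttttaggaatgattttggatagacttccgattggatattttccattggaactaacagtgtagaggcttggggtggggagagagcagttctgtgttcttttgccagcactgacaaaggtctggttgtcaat
Mef2c start at chr13:83523406-83523705: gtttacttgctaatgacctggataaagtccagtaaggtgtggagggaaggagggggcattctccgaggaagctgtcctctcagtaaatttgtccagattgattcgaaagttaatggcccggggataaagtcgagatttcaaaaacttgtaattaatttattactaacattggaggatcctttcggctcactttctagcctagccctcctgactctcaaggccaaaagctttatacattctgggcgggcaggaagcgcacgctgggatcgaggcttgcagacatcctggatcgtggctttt
Mef2c start at chr13:83573357-83573656: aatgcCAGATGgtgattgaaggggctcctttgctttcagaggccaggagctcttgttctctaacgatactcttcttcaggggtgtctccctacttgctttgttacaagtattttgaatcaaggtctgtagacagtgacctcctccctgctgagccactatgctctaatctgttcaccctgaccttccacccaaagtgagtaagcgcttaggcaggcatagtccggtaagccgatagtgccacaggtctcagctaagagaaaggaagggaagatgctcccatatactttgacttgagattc
The first window held 2 E-boxes, at positions -234 and -100 from the start site, and had a GC content of 35.7%, against a median of 52.7% over 32851 mouse windows. The second window held no E-box and 1 GC box, GGGCGG on either strand. The third held 1 E-box, at position -245. E-boxes were found in 72.3% of all windows, the MyoD-type E-box CAGCTG, a form of the E-box, in 16.3%, the GC box in 35.7% and the MEF2 site consensus in 3.2%. None of the 3 Mef2c windows held the CAGCTG form or the MEF2 site. Among the windows of the family, the MEF2 site was found in that of Mef2a (chr7:67372809-67373108), and the Mef2d window (chr3:88142122-88142421) held 2 GC boxes and had a GC content of 72.0%. The Mef2b window (chr8:70152511-70152810) held 2 E-boxes and 2 GC boxes. These matches describe letters in short windows and do not show binding. The files do not say which Mef2c transcripts or exons the 5 probes read.

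Between 15031 and 16314 probes per array were detected, meaning a detection p under 0.01 against negative-control beads. The number of arrays limits the precision, and no label states that replicates were separate cultures, so a p-value reflects only how these samples vary, which may be technical variation. Of 8 myoblast markers, 6 were detected on every array, while Myf5 and Pax7 were detected on none. All 8 myotube markers were detected on every array in differentiation medium. None of 5 adipocyte and none of 3 osteoblast markers was detected on any array, against 1 of 5 endothelial, 2 of 5 cardiomyocyte, 2 of 4 neuron and 4 of 7 leukocyte markers. On 1 array the markers stood apart from those of its pair. Embelin replicate 2 in growth medium had a myotube marker sum, of normalized signals on the linear scale, of 13164.4, against 4967.3 for embelin replicate 1 and 4629.9 and 4525.0 for DMSO. Its 8 myotube markers were all detected, against 6 on each of the other 3 growth medium arrays. The Mef2c and Mef2b differences stated below that use growth medium arrays of embelin cells are given with and without it. Not every such comparison is stated.

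Detection differed among the MEF2 probes. The Mef2c probe ILMN_2732465 was detected on all 12 arrays, and ILMN_1214950 and ILMN_2887992 on 9 of 12, missing both DMSO arrays and embelin replicate 1 in growth medium. ILMN_1220270 was detected on 3 arrays, all at 48 h, and ILMN_2520812 on none. For Mef2b, ILMN_3111575 was detected on 6 arrays and ILMN_2609630 on none. The Mef2d probe ILMN_2714918 was detected on 5 arrays, of which 4 were at 48 h. The lowest detection p of ILMN_2520812 and ILMN_2609630 was 0.142, with raw signals of 43.9 to 54.2 and of 48.2 to 58.9 over the 12 arrays. Those probes give no information on change. The other 6 probes were detected on both arrays of at least 1 group and entered the test, among 16981 probes in all. The standard error over beads lay between 2.47% and 9.21% of the signal for the 8 probes.

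Mef2c signal climbed with differentiation in DMSO cells. The raw bead signal of ILMN_2732465 was 119.4 and 136.2 in growth medium, 537.1 and 506.8 at 24 h and 1632.9 and 2233.1 at 48 h. For ILMN_1214950 the same arrays gave 71.4 and 78.3, then 228.1 and 344, then 768.6 and 1870. ILMN_2887992 gave 65 and 74.6, then 175.4 and 166.1, then 475.8 and 788. In each of these 3 probes the stages did not overlap, and the 48 h arrays lay furthest apart from each other. The share of all probes without overlap between stages was not counted, so this adds nothing to the tests below. ILMN_1220270 read 55.7 and 52.2 in growth medium, 55.1 and 70.7 at 24 h and 86.7 and 97.1 at 48 h, so that only its 48 h arrays stood clear of the rest.

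On the normalized log2 scale, on which all differences and tests below are given, ILMN_2732465 was 2.79 higher at 24 h than in growth medium (SE 0.21, limma adjusted p 2.79e-06), a 6.91-fold difference. At 48 h it was 4.71 above growth medium (SE 0.21, adjusted p 4.25e-08), or 26.3-fold. If neither array of a group detected a probe, the fold is a lower bound. It sets the brighter group's mean against the dim arrays' lowest detected signal, or the probe's own signal where that was higher. ILMN_1214950 was at least 6.42-fold higher at 24 h (adjusted p 0.000602) and at least 30.9-fold higher at 48 h (adjusted p 8.15e-06) than in growth medium. For ILMN_2887992 the bounds were at least 3.49-fold (adjusted p 1.53e-05) and at least 15.5-fold (adjusted p 1.15e-07). ILMN_1220270 was at least 1.40-fold higher at 48 h (adjusted p 0.000164) and was detected in neither group of the 24 h comparison. Of the 6 probes tested, 3 were called higher at 24 h, meaning an adjusted p under 0.05, and 4 at 48 h, all of Mef2c. ILMN_1220270 passed the detection filter only through DMSO cells at 48 h, so the filter favoured a high value in that group. The whole array had 56.0% of probes called at 24 h and 60.5% at 48 h, so the share of MEF2 probes called was near the background.

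The second day added to the first. From 24 h to 48 h in DMSO cells, ILMN_2732465 was 1.93 higher (SE 0.21, adjusted p 0.000117) and ILMN_2887992 2.15 higher (SE 0.24, adjusted p 0.000123). ILMN_1214950 was 2.27 higher (SE 0.53, adjusted p 0.00849), a call lost without DMSO replicate 2 at 48 h (1.63, adjusted p 0.0763) or without DMSO replicate 1 at 24 h (1.83, adjusted p 0.0692). ILMN_1220270 was at least 1.38-fold higher (adjusted p 0.00637), a call lost without DMSO replicate 1 at 24 h (adjusted p 0.0556). These 4 of 6 probes, with ILMN_1220270 favoured by the filter at 48 h, compare with 30.4% of all probes called.

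Embelin-treated cells also gained Mef2c signal over the course. ILMN_2732465 read 114.6 and 180 in growth medium, 482.9 and 476.2 at 24 h and 898.4 and 904.9 at 48 h. ILMN_1214950 read 61.6 and 130.1, then 207.7 and 303.7, then 511 and 749.9. ILMN_2887992 read 72.4 and 103.9, then 174 and 180, then 320.4 and 357.8. The stages again did not overlap within any of these probes, and the share of all probes without such overlap was again not counted. In growth medium the higher value of each pair came from embelin replicate 2, the array with the raised myotube markers.

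Relative to growth medium, embelin cells had 2.30 more log2 signal of ILMN_2732465 at 24 h (SE 0.21, adjusted p 1.15e-05; 2.69 without embelin replicate 2 in growth medium and 1.92 without replicate 1) and 3.21 more at 48 h (adjusted p 5.06e-07). Without the same arrays the 48 h difference was 3.59 and 2.83. All 4 of these values were called. The other probes were detected on at most 1 of the 2 growth medium arrays of embelin cells. ILMN_1214950 was 3.65 higher at 48 h (SE 0.53, adjusted p 0.000132), with 4.41 and 2.89 after leaving out embelin replicate 2 or replicate 1 in growth medium, both called. For ILMN_2887992 the difference was 2.77 (SE 0.24, adjusted p 3.21e-06), or 3.08 and 2.46 without these arrays. ILMN_1220270 was called (adjusted p 0.00514), but it was detected on neither growth medium array and on 1 array at 48 h, where its mean of 5.31 lay below the lowest detected log2 signals in growth medium, 5.39 and 5.49, so no fold is given. That call held without either growth medium array and was lost without embelin replicate 2 at 48 h (adjusted p 0.0561). At 24 h ILMN_1214950 was 2.23 above growth medium, with 2.99 without embelin replicate 2 and 1.47 without replicate 1 there. ILMN_2887992 was 1.64 above, with 1.95 and 1.33. All were called. ILMN_1220270 also passed at 24 h (adjusted p 0.0353), but it was detected on no array of either group. Its call was lost with array weights (adjusted p 0.0661), with no detection filter (0.104) and without embelin replicate 1 at 24 h (0.256) or either growth medium array of embelin cells (0.136 and 0.0629). Thus 4 of 6 probes were called at 24 h, of which 3 were detected there, and 4 of 6 at 48 h, against backgrounds of 55.7% and 61.4%.

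From 24 h to 48 h in embelin cells, ILMN_2732465 was 0.90 higher (SE 0.21, adjusted p 0.0101) and ILMN_2887992 1.13 higher (SE 0.24, adjusted p 0.00586). ILMN_1214950 (1.42, adjusted p 0.071) and ILMN_1220270 (0.26, adjusted p 0.409) did not pass. So 2 of 6 probes were called, with 25.7% of all probes. The call of ILMN_2732465 was lost without embelin replicate 1 at 24 h (adjusted p 0.06) or embelin replicate 2 at 48 h (adjusted p 0.0616), and that of ILMN_2887992 without embelin replicate 2 at 48 h (adjusted p 0.0501).

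**Figure D1:**
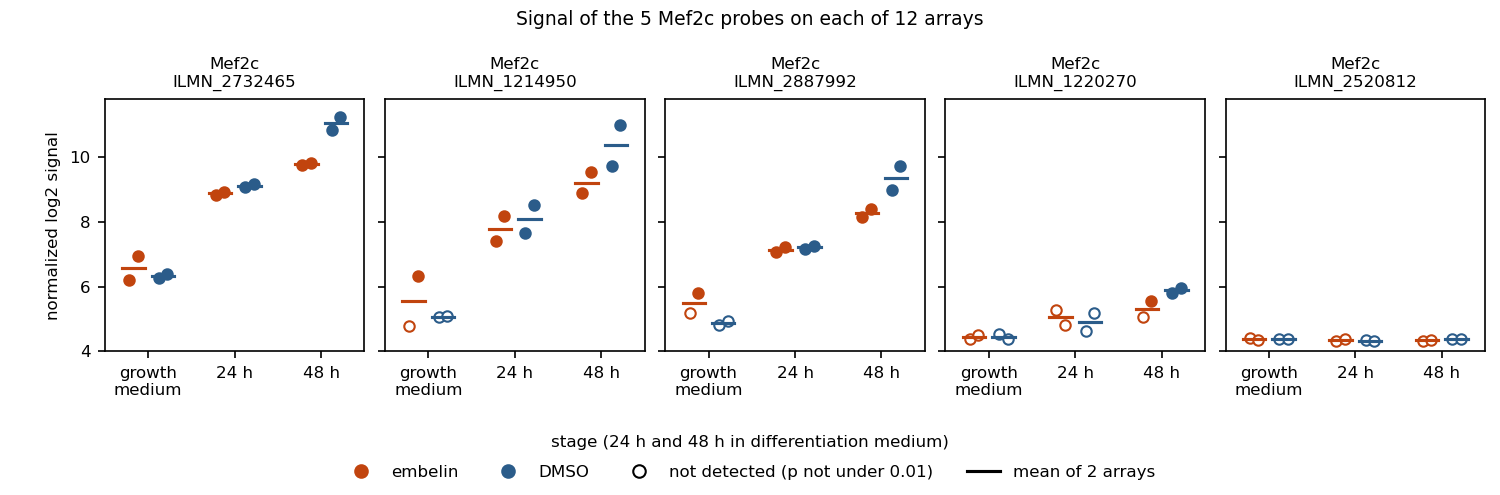
Normalized log2 signal (y axis) of the 5 Mef2c probes on each of 12 arrays, by stage (x axis), with embelin left of DMSO. Points are arrays, filled where detected, and lines are means of 2 arrays. ILMN_2732465, ILMN_1214950 and ILMN_2887992 climb at each stage, while ILMN_2520812 stays at the bottom of the scale. At 48 h the embelin arrays lie below the DMSO arrays in the climbing probes. The difference of ILMN_1214950 there did not pass (limma adjusted p 0.112).

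The treatment comparison at 48 h gave the lower Mef2c signal in embelin cells. ILMN_2732465 read 898.4 and 904.9 with embelin, against 1632.9 and 2233.1 with DMSO. Its normalized means were 9.79 ± 0.06 in embelin cells and 11.05 ± 0.28 in DMSO cells (SD, n = 2 each), a log2 difference of -1.26 (SE 0.21, adjusted p 0.00101), or 2.39-fold lower. ILMN_2887992 read 320.4 and 357.8 with embelin, against 475.8 and 788 with DMSO. It fell by 1.09 (SE 0.24, adjusted p 0.00478), or 2.12-fold lower. These calls held in all 22 and all 20 alternatives in which the probes could be fitted.

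The remaining Mef2c probes were lower in embelin cells by values that did not pass. ILMN_1214950 read 511 and 749.9 with embelin, against 768.6 and 1870 with DMSO, and differed by -1.14 (SE 0.53, 95% interval -2.31 to 0.01, adjusted p 0.112). It was called in 5 of 20 alternatives, among them the fit with a replicate block that is described at the end. ILMN_1220270 read 71 and 85.2 with embelin, against 86.7 and 97.1 with DMSO, and differed by -0.58 (SE 0.21, adjusted p 0.0533). It was detected on 1 of the 2 embelin arrays and called in 6 of 20 alternatives. This probe passed the filter only through these DMSO arrays, which favours a lower value with embelin. In both probes the raw signals of the treatments did not overlap, but the nearest arrays were close, at 749.9 against 768.6 and 85.2 against 86.7. The share of all probes without overlap at this stage was not counted, so this adds nothing to the test. In all, 2 of 6 MEF2 probes were called, with 36.9% of all probes called at this stage.

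The summed signal of the myotube markers moved with this result, though not every marker did. The sum of their normalized signals, taken back to the linear scale, was at 48 h 74980.6 and 70028.7 in embelin cells, against 105260.4 and 104538.3 in DMSO cells, with 8 of 8 detected on each array. Acta1 had log2 signals of 15.06 and 15.01 with embelin and 15.01 and 15.11 with DMSO. Mymk had 11.6 and 11.41 with embelin and 11.5 and 11.62 with DMSO, so both overlapped. The remaining myotube markers were lower on both embelin arrays, among them Actn2, with 11.59 and 11.1 against 13.39 and 13.56. The part of the myotube markers in the Mef2c difference was not tested. In bulk cultures, fewer differentiated cells and less Mef2c RNA per cell cannot be told apart. Myoblast markers summed to 30833.3 and 29233.4 with embelin, against 34039.8 and 36739.3 with DMSO. In DMSO cells in growth medium the sum was 8271.3 and 8707.4, so it rose with differentiation and does not measure the number of myoblasts. Within it, Myod1, Des, Ncam1 and Chrna1 were lower on both embelin arrays at 48 h. Vcam1 was higher, at log2 signals of 9.06 and 9.14 against 8.79 and 8.69, and Cdh15 overlapped.

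Before 48 h no MEF2 probe was called between the treatments. At 24 h ILMN_2732465 read 482.9 and 476.2 in embelin cells, against 537.1 and 506.8 in DMSO cells, without overlap, a log2 difference of -0.23 (95% interval -0.70 to 0.23, adjusted p 0.743). For ILMN_1214950 the difference was -0.30 and for ILMN_2887992 -0.07. By limma 0 of 6 probes were called at 24 h, beside 0.0589% of all probes, and 1752 of 16981 probes had an unadjusted p under 0.05. None of the 6 was among those 1752.

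In growth medium ILMN_2732465 read 114.6 and 180 in embelin cells, against 119.4 and 136.2 in DMSO cells, so the DMSO arrays lay inside the embelin range. Its log2 difference was 0.25 (95% interval -0.22 to 0.72, adjusted p 0.986), and -0.13 without embelin replicate 2. ILMN_2887992 read 72.4 and 103.9 with embelin, against 65 and 74.6 with DMSO, and differed by 0.62 (unadjusted p 0.024, adjusted p 0.801). It was detected on neither DMSO array, and without embelin replicate 2 the difference was 0.31 (adjusted p 0.904). Leaving out embelin replicate 1 gave 0.63 for ILMN_2732465 and 0.94 for ILMN_2887992, neither called. ILMN_1214950 differed by 0.49, or by -0.27 without embelin replicate 2 and 1.25 without replicate 1. Limma called 0 of 6 MEF2 probes and 0% of all probes here, while 968 had an unadjusted p under 0.05.

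**Figure D2:**
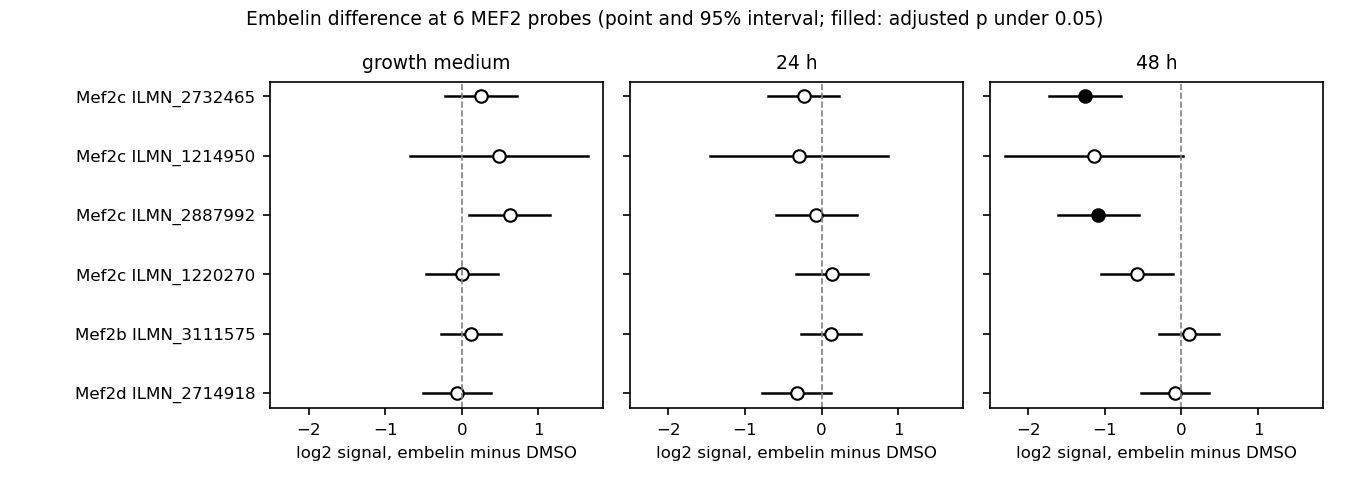
Log2 signal of embelin minus DMSO (x axis) for the 6 MEF2 probes that were tested (y axis), at each stage. Points are limma estimates with 95% intervals over 2 arrays per group, filled at an adjusted p under 0.05. The filled points are Mef2c ILMN_2732465 at -1.26 and ILMN_2887992 at -1.09, both at 48 h.

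The change in the embelin difference between stages was tested as an interaction. For ILMN_2732465 the embelin difference at 48 h was 1.51 log2 units below that in growth medium (-1.51, SE 0.30, adjusted p 0.00524). ILMN_2887992 gave -1.71 (SE 0.34, adjusted p 0.00502), an estimate that uses DMSO arrays in growth medium on which it was not detected. Without embelin replicate 2 in growth medium these were -1.13 and -1.40, both called. ILMN_1214950, likewise not detected on those DMSO arrays, gave -1.64 and did not pass (adjusted p 0.142). It gave -0.88 without embelin replicate 2, and -2.40 without embelin replicate 1, which passed (adjusted p 0.0317). In this test 2 of 6 MEF2 probes were called, and 21.8% of all probes.

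Against the 24 h difference, that of ILMN_2732465 at 48 h was lower by 1.02 (-1.02, SE 0.30, adjusted p 0.0484), and that of ILMN_2887992 by the same size (-1.02, SE 0.34, adjusted p 0.074). The call rests close to the threshold: leaving out 1 array kept it in 3 of 12 cases, with values between -1.22 and -0.82. The test called 1 of 6 probes, beside 12.5% of all probes. Between 24 h and growth medium the embelin difference of ILMN_2732465 differed by -0.49 (adjusted p 0.8), a value of -0.11 without embelin replicate 2 in growth medium and -0.87 without replicate 1. There 0 of 6 probes and 0% of all probes were called by limma, with 1205 probes at an unadjusted p under 0.05.

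Setting embelin cells at 48 h against DMSO cells at 24 h, a comparison added after values were seen, placed the later group higher. ILMN_2732465 read 898.4 and 904.9 in embelin cells at 48 h, against 537.1 and 506.8 in DMSO cells at 24 h, and differed by 0.67 (SE 0.21, adjusted p 0.0328). That call was lost when any 1 of these 4 arrays was left out. ILMN_2887992 differed by 1.06 (SE 0.24, adjusted p 0.00604), a call lost without embelin replicate 2 at 48 h (adjusted p 0.0508). With 2 of 6 probes called, against 32.5% of all probes, the order of the groups for ILMN_2732465 ran from both growth medium groups through both 24 h groups to embelin at 48 h and DMSO at 48 h. Its treatments did not pass the test against each other in growth medium or at 24 h.

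Mef2b lies at chr8:70152761-70167488 and Mef2d at chr3:88141941-88172091, and neither was called in any of 13 comparisons. Mef2b ILMN_3111575 read 74.3 and 107.3 with embelin and 82.3 and 89.7 with DMSO in growth medium. At 24 h it read 75.5 and 84.7 with embelin and 72.1 and 71.5 with DMSO, and at 48 h 79.9 and 80.7 with embelin and 67.6 and 78.4 with DMSO. The embelin difference at 48 h was 0.10 on the log2 scale (95% interval -0.29 to 0.50, adjusted p 0.688). This probe passed the detection filter only through embelin cells at 48 h, so the filter favoured a high value in that group. Over the course, 48 h minus growth medium was -0.19 in embelin cells (adjusted p 0.365) and -0.18 in DMSO cells (adjusted p 0.406). Without embelin replicate 1 in growth medium, the embelin value became -0.51 and passed (adjusted p 0.0132). Without embelin replicate 2 it was 0.12 (adjusted p 0.491). The 24 h value of -0.19 likewise became -0.50 (adjusted p 0.0163) and 0.12 (adjusted p 0.487). The calls rest on embelin replicate 2, the array that stood apart.

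Mef2d ILMN_2714918 read 78 and 82.3 with embelin and 81.5 and 83.2 with DMSO in growth medium. It read 63.6 and 80 with embelin and 81.3 and 71.8 with DMSO at 24 h, then 85.3 and 84 with embelin and 72.2 and 93.5 with DMSO at 48 h. The treatments overlapped at every stage. The embelin difference was -0.33 at 24 h (95% interval -0.77 to 0.12, adjusted p 0.622) and -0.08 at 48 h (95% interval -0.53 to 0.36, adjusted p 0.78). From growth medium to 48 h the log2 difference was 0.25 in embelin cells (adjusted p 0.304) and 0.27 in DMSO cells (adjusted p 0.275). The intervals at 48 h do not reach the Mef2c estimate of -1.26 for either gene, but both probes were read near background, where a change is understated. For Mef2b the filter also works against a lower value with embelin at 48 h.

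**Figure D3:**
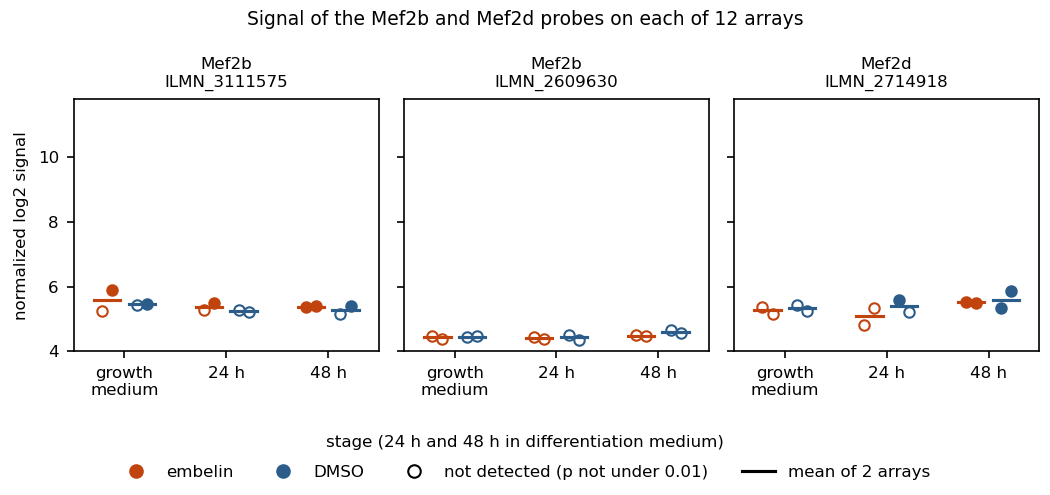
Normalized log2 signal (y axis) of the 2 Mef2b probes and the Mef2d probe on each of 12 arrays, by stage (x axis), with embelin left of DMSO, on the scale used for Mef2c. Points are arrays, filled where detected, and lines are means of 2 arrays. The group means of ILMN_3111575 lie between 5.26 and 5.57, and those of ILMN_2714918 between 5.08 and 5.61.

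The 5 Mef2c probes differed in how far they moved. After centring each on its own mean, ILMN_2732465 and ILMN_2887992 followed each other most closely, with a root mean square difference of 0.28 log2 units over 12 arrays. ILMN_1214950 was 0.41 from ILMN_2732465 and 0.48 from ILMN_2887992. Its arrays had an SD of 0.46 to 1.08 within 5 of the groups and of 0.03 in DMSO cells in growth medium. In every group replicate 2 was above replicate 1 for this probe, for ILMN_2732465 and for ILMN_2887992, so the spread within groups had 1 direction. ILMN_1220270 was 1.07 to 1.47 from the others. Its SD over the arrays was 0.55, against 1.61 to 2.02 for the other 3 probes that were tested.

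The genes whose centred pattern over 12 arrays was most like that of Mef2c ILMN_2732465 were looked for among 5163 genes with an SD of at least 0.3. They were Gprc5c, an orphan G protein-coupled receptor, at a root mean square difference of 0.204, and Myl6b, a myosin light chain, at 0.221. Myom1 and Myom3, proteins of the sarcomere M-band, followed at 0.229 and 0.243, with Sort1, the sorting receptor sortilin, at 0.242. The median over all candidates was 1.78. Myom1, which is also in the list of MEF2-site genes below, had log2 signals of 9.12 and 8.99 in embelin cells and 10.31 and 10.47 in DMSO cells at 48 h. Sort1 had 8.49 and 8.28 with embelin and 9.97 and 10.32 with DMSO at that stage. These 5 genes were chosen for likeness, so their shared course is a description.

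**Figure D4:**
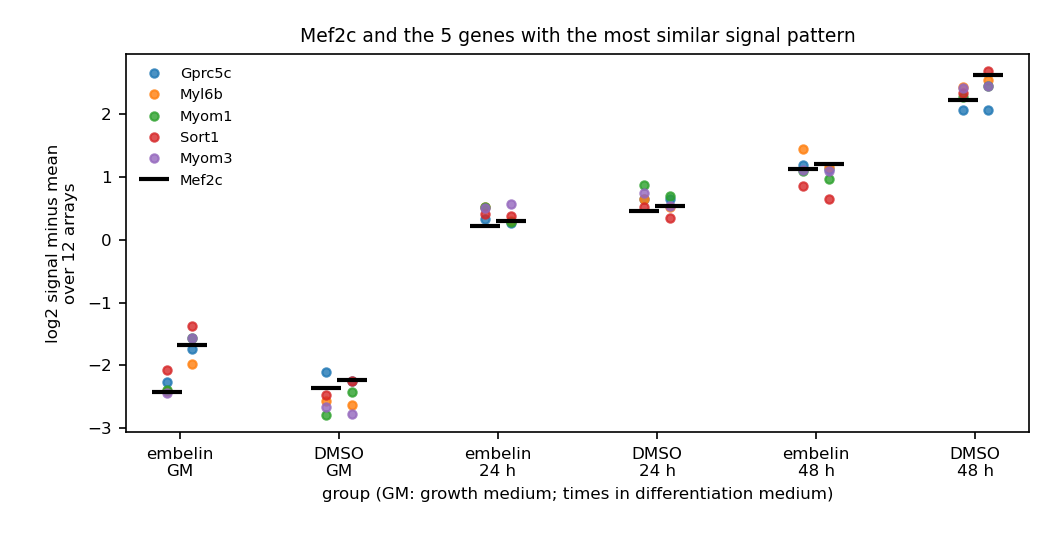
Log2 signal minus the mean over 12 arrays (y axis) for Mef2c ILMN_2732465 (black bars) and the 5 most similar genes (points), with 2 arrays in each group (x axis), embelin left of DMSO at each stage. All 6 genes are lowest in growth medium, and at 48 h embelin arrays lie below DMSO arrays.

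Likeness to Mef2b and Mef2d was looked for among the same candidates, whose SD of at least 0.3 is above that of both probes. The closest to Mef2b were Odf2, Ttc9c, Iqgap1, Pcnt and Poll, at 0.21 to 0.241, with a median of 0.49 over candidates. For Mef2d they were Gsto2, Ccdc43, Cnbd2, Spryd7 and Emp2, at 0.212 to 0.248, with a median of 0.54. The SD of the Mef2b probe over the arrays was 0.19 and that of the Mef2d probe 0.25, so the distances are of about the size of the SDs of these probes.

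The genes around MEF2 were read from 5 lists and Srf, with 1 probe per gene over 11452 genes. Between embelin and DMSO at 48 h, 19.8% of these genes were called higher and 19.9% lower, with a median log2 difference of 0.00. From growth medium to 48 h in DMSO cells, 27.4% were called higher and 34.6% lower, with a median of -0.08. Scaling arrays by their medians instead gave 2379 higher and 1461 lower for embelin, against 2264 and 2280, and 2103 higher and 5425 lower for DMSO at 48 h, against 3140 and 3963. That scaling moved the median of all genes to -0.33 in the DMSO comparison and to 0.08 in the embelin comparison.

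The MyoD family and E proteins, the E-box binding partners of MEF2, had 6 of 7 genes tested. All 6 were called higher at 48 h than in growth medium in DMSO cells, with 4 after median scaling. Myog, the late factor myogenin, was 4.75 higher (SE 0.47, adjusted p 8.02e-06) and Myod1 1.99 higher. Embelin at 48 h split the list, with 2 genes higher and 2 lower. Myf6, also known as MRF4, was at least 1.78-fold lower with embelin (adjusted p 4.58e-06). Myf6 was detected on both DMSO arrays at 48 h, but on no embelin array at 48 h and no DMSO array in growth medium. For such a gene the filter favours a higher value at 48 h in DMSO cells and a lower value with embelin. Myod1 fell by 0.59 (SE 0.17, adjusted p 0.0171). Tcf3, encoding the E2A proteins, was 0.77 higher and Tcf4 0.38 higher. Myog had log2 signals of 12.59 and 12.18 with embelin and 12.46 and 12.34 with DMSO, a difference of -0.02 (adjusted p 0.978).

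The list of class IIa deacetylases and other repressors of MEF2 had 5 of 8 genes tested. In DMSO cells Hdac5 was 1.65 higher at 48 h than in growth medium (SE 0.15, adjusted p 4.09e-06), while Hdac7 fell by 1.0, Sirt1 by 0.93 and Hdac3 by 0.41, making 2 higher and 3 lower. With embelin at 48 h, Hdac7 (0.44, adjusted p 0.00976) and Hdac3 (0.30, adjusted p 0.0215) were higher than with DMSO and none was lower. Hdac5 (0.09) did not pass. The list median was 0.17.

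Among 11 coactivators, all tested, 6 rose and 2 fell over 48 h in DMSO cells. Mamstr, a muscle coactivator that binds MEF2, was at least 5.19-fold higher (adjusted p 2.21e-08) and Vgll2, a TEAD cofactor, at least 6.53-fold higher. Embelin at 48 h gave 4 lower and 3 higher. Ncoa2, counted as lower here and as risen over the course, was detected on no embelin array at 48 h and no DMSO array in growth medium. The filter favours both of these directions for it. Mamstr had log2 signals of 5.85 and 5.69 with embelin and 7.62 and 7.96 with DMSO, and fell by 2.01 (SE 0.13, adjusted p 2.59e-06). Vgll2 fell by 1.83 (SE 0.13, adjusted p 4.68e-06) and Smarcd3, a chromatin remodelling subunit, by 0.86. Maml1 was 0.70 higher, and the list median was 0.23.

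Of 21 upstream kinases, phosphatases and cofactors, 16 were tested. Embelin at 48 h left 6 lower and 1 higher, with a median of -0.21. Mapk12, the p38 gamma kinase of muscle, fell by 1.06 (SE 0.11, adjusted p 4.05e-05). The calcium/calmodulin kinase genes Camk2a and Camk2d fell by 0.77 and 0.58, and Camk2b was at least 1.07-fold lower. Camk2b was detected on no embelin array at 48 h and no DMSO array in growth medium. The filter thus favours its counts as lower with embelin and as risen over the course. Over 48 h in DMSO cells 7 rose and 4 fell. Camk2a was at least 9.34-fold higher, and Sik1, a kinase that acts on class IIa deacetylases, 2.15 higher, while Map2k3 and Mapk11 of the p38 pathway fell by 1.13 and 1.05. Median scaling turned this split to 5 higher and 6 lower, so the list has no settled direction.

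Muscle genes with known MEF2 sites or MEF2-dependent expression had the largest list medians in both comparisons. Of 26, 21 were tested, and 21 of 21 were called higher at 48 h than in growth medium in DMSO cells, with a median of 2.75, or 2.08 with undetected genes at their bounds. Ckm, muscle creatine kinase, was at least 89.0-fold higher, and the calcium-binding Hrc was 6.19 higher, the glycolytic Pgam2 6.03 higher and Mb, myoglobin, 5.72 higher. With embelin at 48 h, 14 of 21 were lower and 1 was higher, with a median of -1.09, or -0.94 with bounds. The filter admits a gene detected on both arrays of any 1 group. Myf6, Ppargc1a and Myl2 were detected on both DMSO arrays at 48 h. They were detected on no embelin array at 48 h and on no DMSO array in growth medium. For such genes the filter favours the directions counted, so the counts are a description. Ckm, Slc2a4, Srpk3, Smyd1, Abra and Myh6 were also detected on no DMSO array in growth medium and on both at 48 h. For these the filter can favour the higher count over the course. Pgam2 had log2 signals of 9.62 and 9.33 with embelin and 11.95 and 11.88 with DMSO, and fell by 2.44 (SE 0.38, adjusted p 0.000562). Abra, an actin-binding activator of Srf signalling, had 7.73 and 7.75 with embelin and 10.06 and 10.09 with DMSO, and fell by 2.34 (SE 0.22, adjusted p 2.23e-05). Ckm fell by 2.32 (SE 0.56, adjusted p 0.00729), and Ppargc1a, a coactivator of mitochondrial genes, was at least 2.59-fold lower.

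The list did not move as one. Besides Myog, the differences of Des (-0.25), Tnnc1 (-0.14), Aldoa (-0.17), Xirp1 (-0.38) and Klf2 (0.36) did not pass, and Jun, an immediate early gene, was 1.36 higher with embelin (SE 0.16, adjusted p 9.23e-05). Apart from Myog, these genes fall outside the naming rule and were chosen after their values were seen. When the fit was limited to genes detected on all arrays, 4 of 10 were lower. Several members overlap other lists: Myog and Myf6 are MyoD family factors, Hdac9 is also a repressor, and Ckm is a myotube marker. The myotube marker sums given above moved in the same comparison. Srf, the other MADS-box factor of muscle, fell by 0.48 with embelin at 48 h (SE 0.12, adjusted p 0.0108) and was 1.39 higher at 48 h than in growth medium in DMSO cells.

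**Figure D5:**
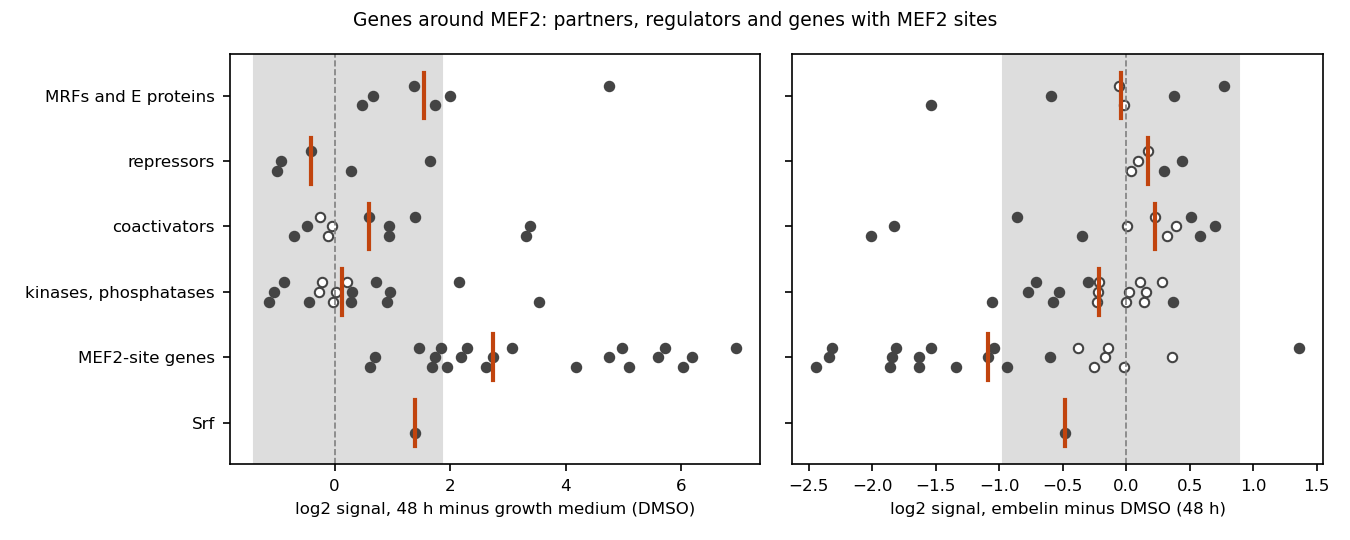
Log2 difference (x axis) of each list gene tested (points, filled at an adjusted p under 0.05) for 48 h minus growth medium in DMSO cells (left) and embelin minus DMSO at 48 h (right), by list (y axis, with MRFs for the MyoD family). Red lines are list medians, and grey bands span the 5th to 95th percentile of 11452 genes, -1.40 to 1.86 on the left and -0.97 to 0.89 on the right. The MEF2-site genes have a median of 2.75 on the left and -1.09 on the right.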

How the data were processed

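RNA of 12 C2C12 samples was hybridised to Illumina arrays. The labels name an Agilent labelling kit, but the file headers and probes are Illumina's. The authors deposited, per the file headers, the mean bead intensity of each probe without normalization, from GenomeStudio (1.8.0 there, 2010.2 per the submitters' processing notes). Their deposited detection score is a fraction equal to 1 minus the detection p. The authors' deposited series matrix holds log2 values, centred on each probe, and was used only as an alternative.

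The neqc function of limma 3.58.1 (R 4.3.3, offset 16) corrected the background, quantile normalized and took log2. The test kept 16981 probes with a detection p under 0.01 on each array of some group. A limma model with a mean for each of 6 groups used all 12 arrays (6 residual degrees of freedom), with Benjamini-Hochberg adjustment over all probes. A probe was called at an adjusted p under 0.05. List counts used the brightest detected probe per gene (11452 genes). The pipeline was tested on simulated data. Lists and plots were made in Python 3.11.15 (matplotlib 3.10.9, pandas 2.3.3, numpy 2.4.6).

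Promoter windows came from RefSeq, GRCm38.p6. Members, lists, tests and the naming rule were chosen with earlier results of these data known. The lists came from general knowledge. The rule named every MEF2 probe, the up to 4 called genes per list with the largest difference in each of the 2 list comparisons, and the 5 genes with the smallest root mean square difference from each MEF2 gene. Among 15 pairs of groups, deviations of arrays with the same replicate number correlated between -0.02 and 0.24 (median 0.09), so numbers were not used as pairs. The 22 alternatives covered scaling, background correction, the authors' values, the filter, 1 probe per gene, the prior, array weights, a replicate block and leaving out each array.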

Additional observations from a re-analysis of the deposited data

Results flagged for a closer look

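For Mef2c, the embelin difference was not the same at the 3 stages, by a test of the difference itself. At ILMN_2887992 the embelin difference at 48 h minus that in growth medium was -1.712 (limma adjusted p 0.00502), although this probe was detected on neither DMSO array in growth medium, and at ILMN_2732465 it was -1.507 (adjusted p 0.00524). At ILMN_2732465 the difference at 48 h minus that at 24 h was -1.021 (adjusted p 0.0484). The growth medium value rests in part on embelin replicate 2, whose myotube marker sum, of normalized linear signals, was 13164.4, against 4967.3 on embelin replicate 1. Without that array the estimates were -1.402 (adjusted p 0.0135) and -1.126 (adjusted p 0.00523). No part of these differences was assigned to a cause.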

How the results depend on the processing

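The lower Mef2c signal of embelin cells at 48 h at ILMN_2732465 was called in all 22 alternatives, with leave-one-out values of -1.455 to -1.059. Other calls were less settled. For embelin at 48 h against DMSO at 24 h, the value of 0.668 at ILMN_2732465 lost its call with no detection filter (adjusted p 0.096), and leaving out 1 array gave 0.623 to 0.713. For the embelin difference at 48 h minus that at 24 h, median scaling gave -0.972 (adjusted p 0.058) and no detection filter -1.021 (adjusted p 0.132), with leave-one-out values of -1.219 to -0.823. From 24 h to 48 h in embelin cells the leave-one-out range was 0.856 to 0.951. For Mef2b ILMN_3111575 in embelin cells it was -0.502 to 0.124 for 24 h and -0.506 to 0.120 for 48 h against growth medium. Fewer arrays entered the leave-one-out fits and more probes the fit with no detection filter, while median scaling kept both the same. The cause of these changes was not tested.

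The replicate numbers were not used as pairs, a choice made from low correlations over all probes tested. It does not show that the arrays were unpaired. Of the 15 correlations between groups, 7 were over 0.1 and 0 under -0.1. For Mef2c ILMN_2732465, ILMN_1214950 and ILMN_2887992, replicate 2 was above replicate 1 in every group, so the fit as reported may overstate their spread. With the replicate block, Mef2c ILMN_1214950 was called for embelin at 48 h (-1.145, adjusted p 0.00919), for 48 h against 24 h in embelin cells (1.421, adjusted p 0.00473), for embelin at 48 h against DMSO at 24 h (1.125, adjusted p 0.0114) and for the embelin difference at 48 h minus that in growth medium (-1.636, adjusted p 0.0152). ILMN_2887992 was then called for that at 48 h minus 24 h (-1.019, adjusted p 0.0221). The block changed no other call of a MEF2 probe, and probes called at 48 h for embelin went to 6467, against 6258.

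Over all MEF2 probes, 68 values changed call under an alternative and 1544 did not, and no called value changed sign. The number of MEF2-site genes lower with embelin was 14, and 4 of 10 where only genes detected on all arrays were fitted. The number higher was 1, or 2 in 6 alternatives. All 10 of those 10 genes were called higher at 48 h in DMSO cells, against 21 of 21. Signals near background limit what can be said of Mef2b, Mef2d and Mef2c ILMN_1220270, and 2 arrays per group limit all values.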
